A study of Mus musculus with 10 samples.

Results

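The Reg genes Reg1, Reg3a, Reg3b, Reg3g and Reg4, which encode secreted lectins, were followed across 5 sorted populations of mouse small-intestinal crypt cells. They were taken by name from the count table, where they are 5 of 35006 genes and made up 0.0677% to 0.37% of the counts on genes in a library. The cells came from C57BL6/J mice that carry EF1a-OSCAR, a knock-in at Rosa26 from which the EF1a promoter drives mCherry and VeN90, a Venus protein with an inserted CDK9 target peptide, after removal of a stop cassette by Vasa-Cre. The OSCAR signal is the ratio of VeN90 to mCherry fluorescence, and a high ratio marks cells with low CDK9 activity. Live EpCAM+ cells were sorted by the OSCAR ratio and by the overall reporter level (EF1a) into P1 (OSCARlow EF1alow), P2 (OSCARhigh EF1alow), P3 (OSCARlow EF1ahigh), P4 (OSCARmed EF1alow) and P5 (OSCARmed EF1ahigh), with 10000 cells in each sample and 2 libraries in each population. By the labels, the groups thus share the reporter and the Cre history and differ in the gate. The labels give no treatment, age or sex. The study's text calls the libraries biological replicates, but the labels name no animals, so the p-values measure only the spread between these samples.

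Reg proteins are small secreted C-type lectins. Reg3b and Reg3g are released by the intestinal epithelium and kill or bind bacteria, and their transcription is known to rise through Toll-like receptor signalling by MyD88 and through interleukin-22 by STAT3. Reg1 was first described as a growth-promoting protein of the regenerating pancreatic islet, and Reg4 is used as a marker of secretory cells of the gut epithelium.

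Libraries held 3857612 to 6485811 counts on genes. Both P3 libraries stood apart, with 59.2% and 36.1% of counts on mitochondrial genes against 1.04% to 5.19% in the other 8 libraries. The libraries labelled P2 carried the highest summed levels of Paneth cell markers (409777 to 569713 CPM, counts scaled to a common library size, against 511 to 64236 elsewhere), goblet cell markers (46114 to 108034 CPM) and enteroendocrine markers (5524 to 13295 CPM), whereas the study's account gives such markers to the P3 gate. The deposited files are numbered by another scheme than the sample labels, so that a population's number differs between them. No library was renamed, population names below are those of the labels, and every direction drawn from P2 or P3 rests on them. Enterocyte markers were highest in P1, at 50623 to 66112 CPM. The 11 lymphocyte markers summed to 1003 and 360 CPM in P1, 215 and 18.6 CPM in P3 and 22.0 to 51.6 CPM elsewhere. Among them, the cytokine genes Il22 and Il17a had no count in any library. The part of lymphocyte RNA in the levels below was not tested.

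A run of 6 Reg genes, the members other than Reg4 together with Reg2 and Reg3d, stand next to each other within 98.0 kb of chromosome 6 with no other annotated gene between them. In the NCBIM37 annotation, which has the coordinates of the mm9 build, Reg3b lies at chr6:78320879-78323460, Reg3a at chr6:78330703-78333833 and Reg1 at chr6:78375974-78378661 on the plus strand, and Reg3g at chr6:78416262-78418868 on the minus strand. Reg4 is on another chromosome, at chr3:98026079-98040671 on the plus strand. Each of the 5 genes has 6 exon blocks, with 759 to 1021 exonic bases, and none overlaps another annotated gene. Although the transcripts of Reg3b and Reg3g are 77.7% identical with a longest shared run of 35 bases, 0 of the 75-base stretches of any member's transcript occurred in a protein-coding transcript of another gene, so that full-length reads over these exons belong to 1 member.

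The promoter windows of 4 members are shown because Reg1 had its lowest and Reg4 its highest level in P2 and because Reg3b and Reg3g, though neighbours and close paralogs, did not keep a fixed ratio. Each runs from 250 bases before to 50 bases after the annotated start, is taken from RefSeq on GRCm38.p6, and has in capitals the TATA-box letters TATAAA on the gene's strand and the STAT-type letters TTCNNNGAA on either strand. The windows are chr6:78425733-78426032 (plus strand) for Reg1, chr6:78370635-78370934 (plus) for Reg3b, chr6:78468825-78469124 (minus) for Reg3g and chr3:98221906-98222205 (plus) for Reg4.
Reg1: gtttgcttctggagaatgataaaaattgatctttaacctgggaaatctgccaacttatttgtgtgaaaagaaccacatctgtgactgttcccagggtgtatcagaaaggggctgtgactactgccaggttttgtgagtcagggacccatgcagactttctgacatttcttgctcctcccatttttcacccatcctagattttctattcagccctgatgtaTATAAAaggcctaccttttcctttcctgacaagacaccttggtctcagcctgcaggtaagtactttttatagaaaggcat
Reg3b: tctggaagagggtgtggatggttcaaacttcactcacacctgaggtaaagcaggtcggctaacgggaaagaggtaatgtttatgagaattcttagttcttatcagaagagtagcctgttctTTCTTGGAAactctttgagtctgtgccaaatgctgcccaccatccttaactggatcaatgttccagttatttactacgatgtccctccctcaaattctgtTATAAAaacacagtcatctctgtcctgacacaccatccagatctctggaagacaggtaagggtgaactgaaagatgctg
Reg3g: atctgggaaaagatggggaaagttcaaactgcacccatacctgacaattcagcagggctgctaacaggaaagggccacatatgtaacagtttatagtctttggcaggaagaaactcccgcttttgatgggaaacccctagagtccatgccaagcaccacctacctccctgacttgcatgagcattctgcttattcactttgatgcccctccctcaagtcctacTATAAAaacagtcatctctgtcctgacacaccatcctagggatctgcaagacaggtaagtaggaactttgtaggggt
Reg4: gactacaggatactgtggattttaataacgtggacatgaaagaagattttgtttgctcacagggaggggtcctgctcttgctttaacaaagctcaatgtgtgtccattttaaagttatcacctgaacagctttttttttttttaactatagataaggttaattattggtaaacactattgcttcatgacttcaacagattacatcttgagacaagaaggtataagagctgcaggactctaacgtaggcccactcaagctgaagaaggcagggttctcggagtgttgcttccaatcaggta

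The letters TATAAA begin at -30 in Reg1, -29 in Reg3b and -27 in Reg3g, counted from the annotated start, and are in neither the Reg4 nor the Reg3a window. Over 32851 promoters of the same length, 8.32% hold them. Of the members, the window of Reg3b alone holds TTCNNNGAA, as TTCTTGGAA at -129, against 8.3% of all promoters. Reg3b and Reg3g share a run of 29 bases, ACAGTCATCTCTGTCCTGACACACCATCC, which begins at -20 in both. The longest run shared by any other pair of members was 14 bases, between Reg3a and Reg3g. These are matches of letters and were not tested as binding sites.

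Of the 5 members, 3 (Reg1, Reg3a and Reg4) differed over the 5 populations at an adjusted p under 0.01 (edgeR quasi-likelihood test, 4976 of 13708 genes or 36.3% called). The adjusted p was 0.00013 for Reg4, 0.000585 for Reg1, 0.00248 for Reg3a, 0.0855 for Reg3b and 0.763 for Reg3g. Without P2 replicate 1 or P2 replicate 2, Reg3a was no longer called, at adjusted p = 0.0302 and 0.0228, respectively. Levels below are CPM scaled by TMM (trimmed mean of M-values). In these bulk samples, fewer cells of a type and less RNA per cell cannot be told apart.

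**Figure D1:**
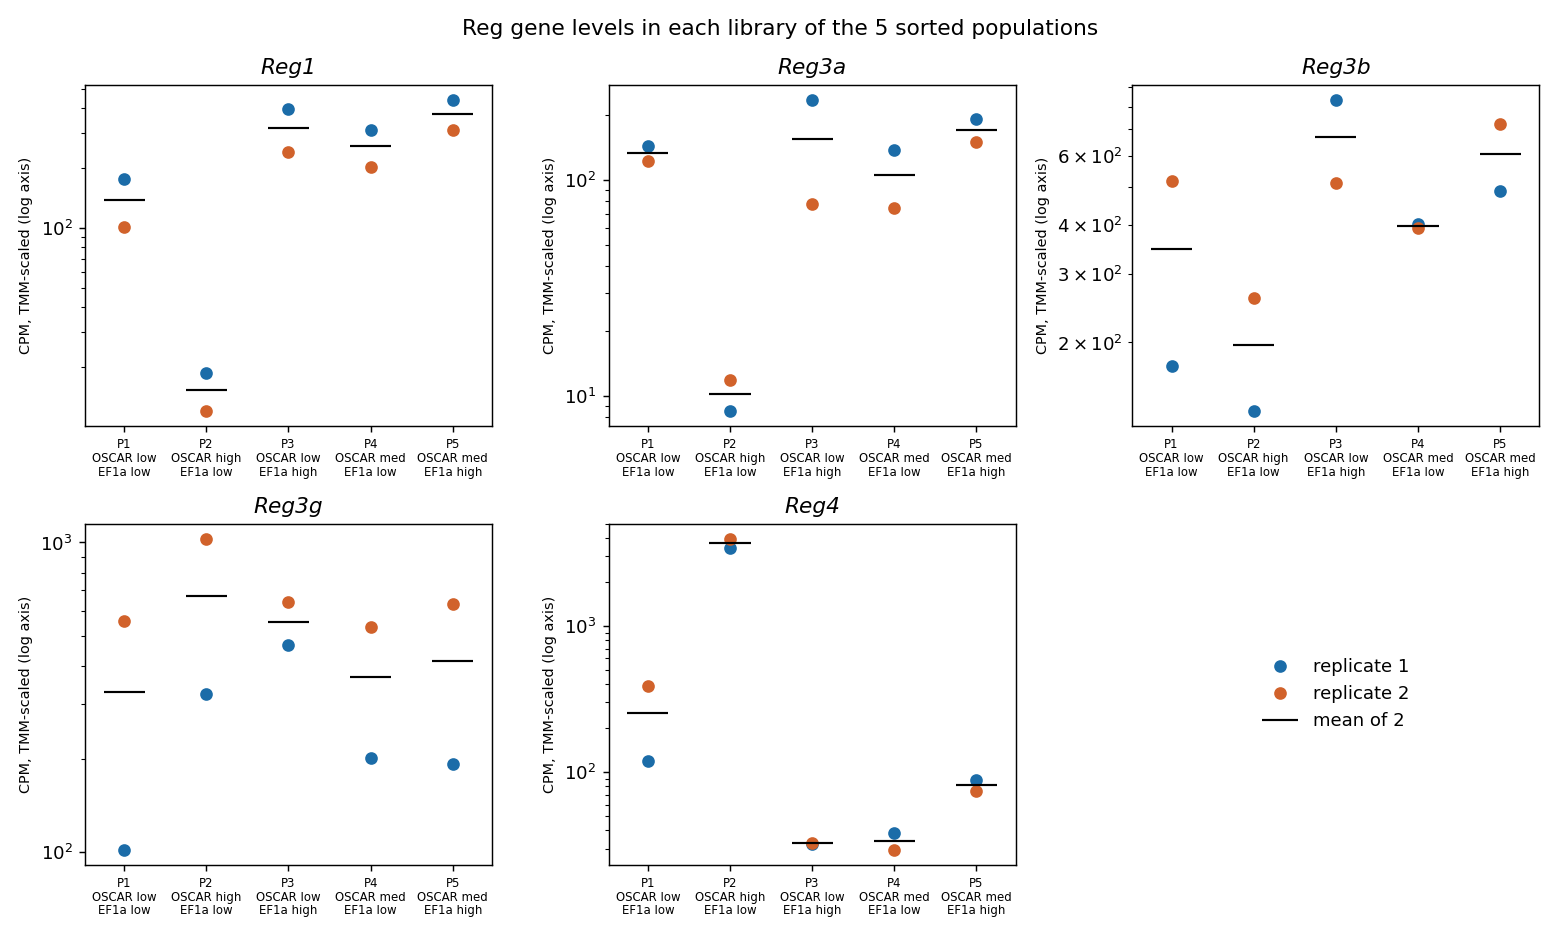
Level of each Reg gene (CPM, TMM-scaled, log axis) in the 2 libraries of each population; points are libraries, coloured by replicate number, and lines are the means of 2. Reg4 is at 3422 and 3918 CPM in P2 and at no more than 389 CPM elsewhere, Reg1 and Reg3a are lowest in P2, and replicate 2 is the higher library for Reg3g in each population.

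Reg4 was the member that set P2 apart upwards. It was measured at 3422 and 3918 CPM in the libraries labelled P2 and at 119 and 389 CPM in P1. In P5 it stood at 89.0 and 74.7 CPM, in P4 at 38.2 and 29.6 CPM and in P3 at 32.3 and 33.0 CPM. The order P2, P1, P5, P4 had no overlap between neighbouring populations, and P4 and P3 overlapped. Reg4 was 14.5-fold higher in P2 than in P1 (log2 3.85, SE 0.53, adjusted p = 0.000655), 108-fold higher than in P4 (log2 6.76, SE 0.61, adjusted p = 0.00035) and 112-fold higher than in P3 (log2 6.81, SE 0.61, adjusted p = 0.000163). Among the populations other than P2, Reg4 was 7.49-fold higher in P1 than in P4 (log2 2.90, SE 0.51, adjusted p = 0.00265) and 7.77-fold lower in P3 than in P1 (log2 -2.96, SE 0.52, adjusted p = 0.00367).

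The size of the differences that set P1 apart for Reg4 moved with both P1 libraries, and most without P1 replicate 2. For P1 against P4, the log2 difference was 1.77 without P1 replicate 2 and 3.52 without P1 replicate 1. It was 3.09 without P4 replicate 1 and 2.73 without P4 replicate 2. For P3 against P1 it was -1.84 without P1 replicate 2 and -3.58 without P1 replicate 1. Without P3 replicate 1 it was -2.93, and without P3 replicate 2 it was -2.95. Each of these fits left a population with 1 library, and only that of P1 against P4 without P1 replicate 1 kept the call on Reg4. The Paneth markers were likewise at 19803 CPM in P1 replicate 1 and 64236 CPM in P1 replicate 2, and their part in the Reg4 level of P1 was not tested.

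Reg1 had its lowest level in P2, where Reg4 had its highest. Its levels were 18.5 and 12.01 CPM in P2, 175 and 101 CPM in P1 and 310 and 202 CPM in P4. In P3 they were 397 and 241 CPM, and in P5 436 and 311 CPM. P5, P3 and P4 overlapped with their neighbours, P1 lay below P4 without overlap, and P2 lay below P1. In P2, Reg1 was 9.08-fold lower than in P1 (log2 -3.18, SE 0.43, adjusted p = 0.000626), 16.9-fold lower than in P4 (log2 -4.07, SE 0.44, adjusted p = 0.00056) and 20.9-fold lower than in P3 (log2 -4.39, SE 0.45, adjusted p = 0.000251). The difference between P1 and P4 (log2 -0.89, SE 0.39) did not pass, at adjusted p = 0.0894, nor did that between P3 and P1 (log2 1.204, SE 0.39), at adjusted p = 0.0402. With the replicate number as a blocking term in edgeR both passed, at -0.91 (adjusted p = 0.00629) and 1.21 (adjusted p = 0.00274).

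Reg3a was also lowest in P2. It was measured at 8.51 and 11.8 CPM in P2 and at 144 and 123 CPM in P1. In P4 it was at 138 and 74.3 CPM, in P3 at 234 and 77.5 CPM and in P5 at 191 and 150 CPM. P5, P3, P1 and P4 overlapped with their neighbours in the order, and P2 lay below all of them. Reg3a was 13.0-fold lower in P2 than in P1 (log2 -3.70, SE 0.54, adjusted p = 0.000863), 10.3-fold lower than in P4 (log2 -3.37, SE 0.54, adjusted p = 0.00234) and 15.1-fold lower than in P3 (log2 -3.92, SE 0.55, adjusted p = 0.000845). Without P2 replicate 1 the adjusted p was 0.0123 against P1, 0.0242 against P4 and 0.0112 against P3. The P2 against P4 call was also lost without P2 replicate 2 (0.0191) and without P4 replicate 1 (0.0134).

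The enterocyte markers summed to 2877 and 6978 CPM in P2, which overlapped with P4 (12803 and 5079 CPM). Their sums were 50623 to 66112 CPM in P1, 9469 to 30949 CPM in P3 and 21659 and 9086 CPM in P5. Of these 12 markers, 8 were called as lower in P2 against P1, 3 against P3 and 1 against P4, with 0 higher. Of all genes, 15.2%, 10.6% and 6.3% were called as lower there. Their part in the levels of Reg1 and Reg3a was not tested.

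Reg3b, one of the pair of antibacterial lectins, had its lowest mean in P2, and no comparison passed the test. It was measured at 134 and 260 CPM in P2, 175 and 518 CPM in P1 and 401 and 392 CPM in P4. In P5 it was at 486 and 722 CPM and in P3 at 830 and 512 CPM. P2 overlapped with P1 and lay below the 6 libraries of P3, P4 and P5. The log2 difference was -1.77 (SE 0.53, adjusted p = 0.028) against P3 and -1.30 (SE 0.45, adjusted p = 0.0431) against the average of the others. With DESeq2 both passed, at adjusted p = 0.0037 and 0.00503.

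Reg3g, the other antibacterial member, was called in no comparison, and its 2 libraries lay far apart in most populations. It was measured at 102 and 556 CPM in P1, 324 and 1025 CPM in P2 and 466 and 642 CPM in P3. In P4 it was at 201 and 532 CPM and in P5 at 193 and 634 CPM. No neighbouring populations in its order were apart, and the log2 difference of P2 from the average of the others was 0.73 (SE 0.65, adjusted p = 0.407, 95% interval -0.74 to 2.19). Replicate 2 was the higher library in each of the 5 populations, by 1.38-fold in P3 to 5.45-fold in P1. All replicate 1 libraries, at 102 to 466 CPM, lay below all replicate 2 libraries, at 532 to 1025 CPM.

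**Figure D2:**
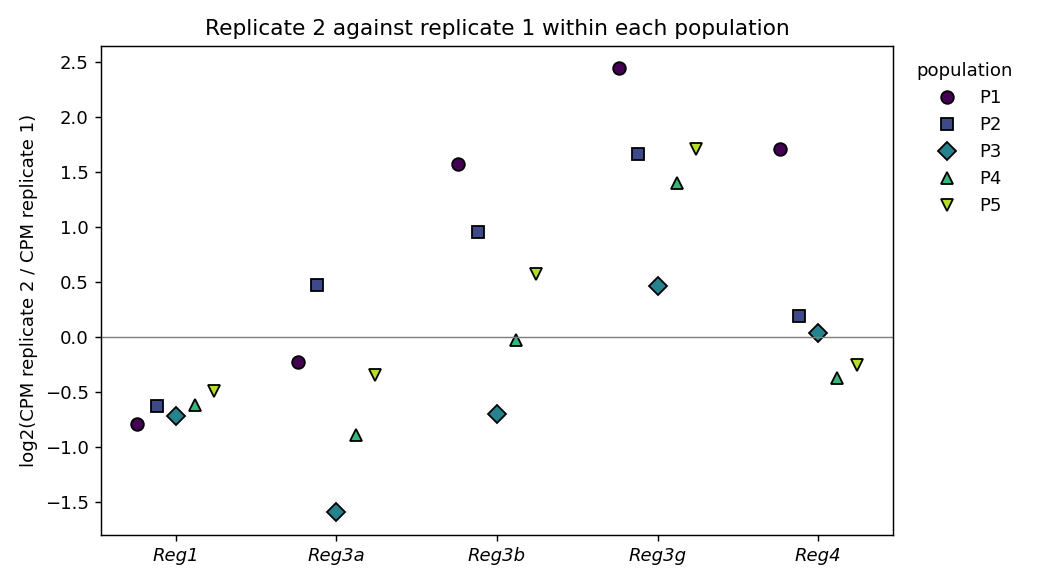
Log2 ratio of replicate 2 to replicate 1 (CPM, TMM-scaled) for each Reg gene, with 1 symbol for each population. All 5 populations lie above 0 for Reg3g and below 0 for Reg1, and the other members have populations on both sides of 0.

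Reg1 went the other way between replicate numbers, with replicate 1 the higher library in all 5 populations by 1.40-fold to 1.73-fold. Reg3a was higher in replicate 2 in 1 population, and Reg3b and Reg4 were higher in replicate 2 in 3 populations each. The replicate numbers also differed in sex-linked genes. Xist, transcribed from the inactive X chromosome, was at 160 to 1370 CPM in the replicate 1 libraries and at 0.167 to 1.29 CPM in the replicate 2 libraries, and Ddx3y, a Y-linked gene, was at 0 in replicate 1 and at 24.6 to 50.0 CPM in replicate 2. Enterocyte markers were higher in replicate 1 in P1, P3, P4 and P5 and in replicate 2 in P2. The sex of the animals, the animals themselves and the day of the sort cannot be told apart here.

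The replicate number itself was tested in a fit that also held the population, a test added after the levels had been seen. It called 0 of 5 members and 0.321% of all genes (edgeR, 17 genes or 0.124% higher and 27 or 0.197% lower in replicate 2), with 1522 genes at an unadjusted p under 0.05. Reg3g was higher in replicate 2 by 1.54 on the log2 scale (SE 0.27, adjusted p = 0.0392, rank 88 of 13708 by p) and missed the threshold. Reg1 was lower (log2 -0.65, SE 0.13, adjusted p = 0.0788). Reg3a, Reg3b and Reg4 had log2 differences of -0.58, 0.47 and 0.25, with adjusted p of 0.433, 0.632 and 0.822.

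Counted by comparison, the same members were called in each comparison that involved P2. From P2 to P1, P4, P3 and the average of the others, 3 of 5 members were called, Reg4 as higher and Reg1 and Reg3a as lower, where 29.1%, 14.3%, 21.0% and 27.0% of all genes were called, respectively. By direction, 13.9%, 8.02%, 10.5% and 16.3% of all genes were called as higher in P2 and 15.2%, 6.3%, 10.6% and 10.7% as lower. The median log2 difference of the 5 members was -0.82, -1.01, -1.77 and -1.30, beside 0.01, 0.05, -0.01 and 0.00 over all genes tested. Against the average of the others, Reg4 was 53.0-fold higher (log2 5.73, SE 0.33, adjusted p = 7.39e-06), Reg1 16.8-fold lower (log2 -4.07, SE 0.41, adjusted p = 9.06e-05) and Reg3a 13.6-fold lower (log2 -3.76, SE 0.50, adjusted p = 0.000402). These comparisons share the P2 libraries and are not independent of each other.

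**Figure D3:**
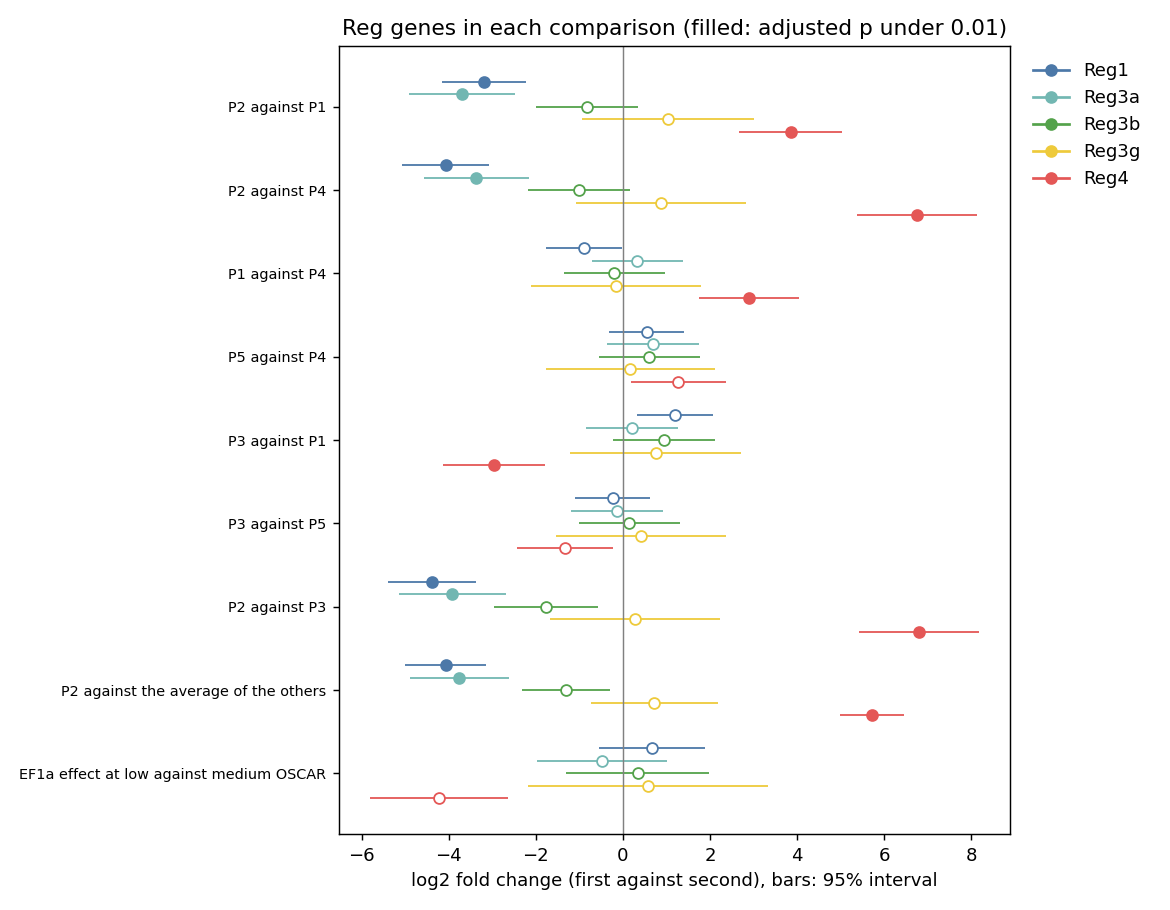
Log2 fold change of each Reg gene in the 8 comparisons and in the difference of the EF1a effect, with 95% intervals; filled points have an adjusted p under 0.01. Reg4 lies at 3.85 to 6.81 and Reg1 and Reg3a at -4.39 to -3.18 in the comparisons of P2, and the intervals of Reg3g all include 0.

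In P1 against P4 and in P3 against P1, 1 of 5 members was called, Reg4 in both, where 23.5% and 15.6% of all genes were called. In P1 against P4, 14.0% of all genes were called as higher and 9.44% as lower, and in P3 against P1 8.02% and 7.59%. Between the gates that differ in EF1a at medium OSCAR, P5 and P4, and between P3 and P5, 0 of 5 members were called and 0% of all genes, with 351 and 1587 genes at an unadjusted p under 0.05. DESeq2 also called none of the members there, and 28 and 41 of all genes. The log2 difference of Reg4 was 1.27 in P5 against P4 (SE 0.48, unadjusted p = 0.0267) and -1.33 in P3 against P5 (SE 0.49, unadjusted p = 0.0243). For these comparisons the 95% intervals of the other members included 0. In all, 14 of the 40 tests of a member in the 8 comparisons were called, and of the 20 tests in the 4 comparisons without P3, 7 were called with the P3 libraries in the fit and 7 with them left out.

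For Reg4, the EF1a gates had differences of opposite sign at low and at medium OSCAR. At low OSCAR, in P3 against P1, its log2 difference was -2.96, and at medium OSCAR, in P5 against P4, it was 1.27 and not called. The difference of these differences was -4.23 on the log2 scale (SE 0.70, 95% interval -5.82 to -2.64, adjusted p = 0.0109), short of the threshold. At that threshold 0 of 5 members were called and 0.817% of all genes (0.328% as higher and 0.489% as lower). An unadjusted p under 0.05 was reached by 1 of 5 members (Reg4) and by 4653 of 13708 genes. DESeq2 called Reg4, at adjusted p = 1.46e-08, and called 1934 of all genes there, beside 112 in edgeR. The other members had differences of -0.48 to 0.66, with intervals that included 0.

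Scaling bears on these values, since the TMM factors ran from 0.490 to 1.56. Scaling by library totals moved the median log2 difference of all genes by -1.14 in P2 against P4 and by -0.06 in P2 against P3. With library totals all 14 calls on Reg1, Reg3a and Reg4 held and 17 tests were called. The further calls were Reg3b in P2 against P4 (-2.14, adjusted p = 0.00829) and against the average of the others (-1.94, adjusted p = 0.00629), and Reg1 in P1 against P4 (-1.58, adjusted p = 0.00958). The sign of the uncalled Reg3g difference of P2 against P4 turned from 0.88 to -0.26 there.

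Within a library, ratios between members do not depend on that scaling. Per exonic kilobase, Reg4 was 140 and 247 times the level of Reg1 in P2, 0.514 and 2.91 times in P1 and 0.0616 to 0.182 times in the other 6 libraries. Of the summed level of the 5 members per kilobase, Reg4 took 84.2% and 69.4% in P2, 13.3% and 18.5% in P1 and 1.25% to 4.93% elsewhere. Reg1 and Reg3a together made up under 1 percent of it in both P2 libraries, at 0.603% and 0.281% for Reg1 and 0.256% and 0.255% for Reg3a.

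**Figure D4:**
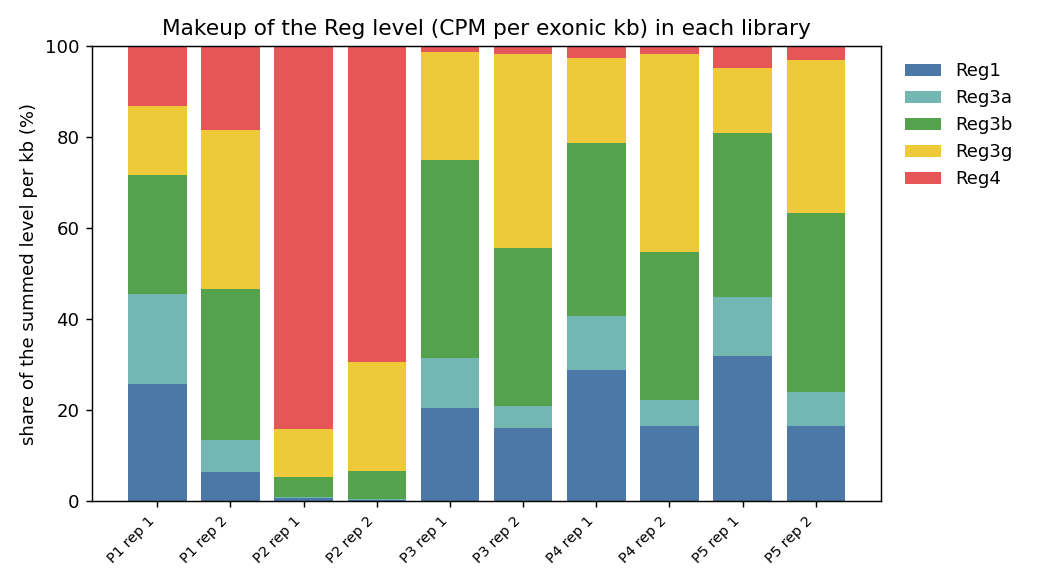
Share of each member in the summed Reg level per exonic kilobase (percent) for each of the 10 libraries. Reg4 takes 84.2% and 69.4% in P2 and no more than 18.5% elsewhere, where Reg3b and Reg3g make up the larger share in most libraries.

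Reg3b and Reg3g did not keep a fixed ratio. Per exonic kilobase, Reg3g was 2.37 and 3.87 times the level of Reg3b in P2 and 0.390 to 1.33 times in the other 8 libraries. Both P2 libraries lay above the other 8, and in each population the ratio was higher in replicate 2. Reg1 was 0.893 to 3.36 times the level of Reg3a over all 10 libraries, a narrower range than that of Reg3g to Reg3b (0.390 to 3.87). Over the 8 libraries outside P2 the range was not narrower, at 0.893 to 3.36 beside 0.390 to 1.33. The ratio of Reg1 to Reg3a was 0.893 to 1.32 in P1, below all libraries of P3, P4 and P5 (1.83 to 3.36). Over the 10 libraries, which share the 5 populations, Pearson's r of log2 CPM was 0.94 between Reg1 and Reg3a, -0.94 between Reg1 and Reg4 and 0.37 between Reg3b and Reg3g. Spearman's rho was 0.84, -0.65 and 0.31 for these pairs. The P2 libraries had both the lowest Reg1 and the highest Reg4. Among P3, P4 and P5, however, P5 had the highest mean of both genes.

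**Figure D5:**
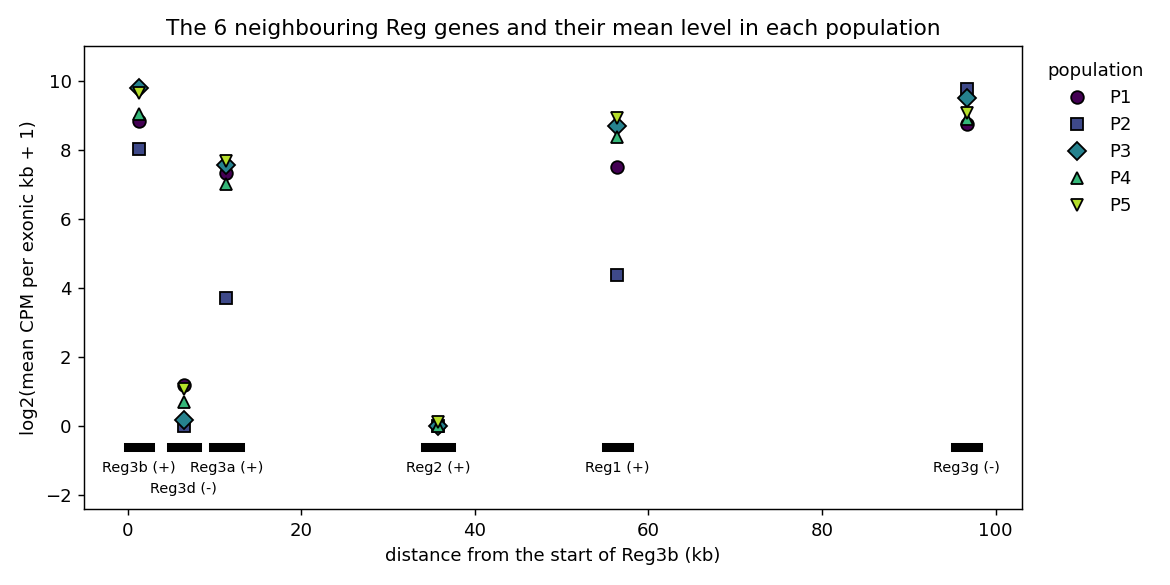
The 6 neighbouring Reg genes by distance from the start of Reg3b (kb; bars, with strand) and their mean level in each population, as log2 of the mean CPM per exonic kilobase plus 1. Reg2 and Reg3d lie near 0 between genes with high levels, and P2 has the lowest mean for Reg3b, Reg3a and Reg1 but the highest for Reg3g. Reg3g was called in no comparison, and its P2 and P3 libraries overlapped.

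Both further Reg genes of the cluster were near or at the detection limit. Reg2 had 1 count, in P5 replicate 1, and 0 in the other 9 libraries. Reg3d, whose position lies between Reg3b and Reg3a, had 8 and 4 counts in P1, 4 and 5 in P4, 4 and 12 in P5, 0 and 1 in P3 and 0 in both P2 libraries. A count of 0 allows up to 3 counts, which is 0.463 to 0.778 CPM of the counts on genes, counting error only. Neither passed the filter on low counts.

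Of 12 genes for the proposed Reg receptor, the interleukin-22 and interleukin-6 receptors and STAT3 signalling, 6 rose and 0 fell in P2 against the average of the others, with a median log2 difference of 0.60 beside 0.00 over all genes, of which 16.3% rose. Extl3, which encodes a proposed receptor of Reg proteins, was at 64.2 and 62.7 CPM in P2 and 12.2 to 38.4 CPM elsewhere (log2 1.43, SE 0.16, adjusted p = 0.000164). Il22ra1, the epithelial subunit of the interleukin-22 receptor, was at 120 and 106 CPM in P2 and 25.3 to 70.1 CPM elsewhere (log2 1.61, SE 0.14, adjusted p = 4.69e-05). Both were above all other libraries in P2, where Reg3b had its lowest and Reg3g its highest mean with TMM scaling. Reg3g was called in no comparison, and its P2 libraries (324 and 1025 CPM) overlapped those of P3 (466 and 642 CPM). With library totals its log2 difference of P2 against P4 was -0.26. In P1 against P4, 6 of the 12 rose and 1, Extl3, fell (median 1.16, and -0.06 over all genes, of which 14.0% rose and 9.44% fell). In P3 against P1, 0 rose and 6 fell (median -1.01, and -0.03 over all genes, of which 8.02% rose and 7.59% fell), and in P2 against P1, 3 rose and 2 fell (median -0.02, and 0.01 over all genes, of which 13.9% rose and 15.2% fell). Stat3, the transcription factor downstream of both receptors, was at 224 and 254 CPM in P1, 120 and 161 CPM in P2 and 55.3 to 71.1 CPM in P3, P4 and P5.

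Of 17 genes of Toll-like receptor and NF-kB signalling, 15 passed the filter, and 2 rose and 0 fell in P2 against the average of the others (median 0.13), a share near that of all genes, of which 16.3% rose and 10.7% fell. They were Irak1, a kinase that acts with MyD88 (176 and 157 CPM in P2, 32.8 to 73.8 CPM elsewhere, log2 1.54, adjusted p = 9.06e-05), and Tlr5, the flagellin receptor (16.7 and 8.67 CPM in P2, 0 to 0.791 CPM elsewhere). In P2 against P1, 2 rose and 4 fell, where 13.9% of all genes rose and 15.2% fell. Of 20 genes known to respond to interleukin-22, 10 passed the filter. In P2 against the average of the others, 1 (Pla2g2a, a secreted antibacterial phospholipase) rose and 1 (Il18, a cytokine of the epithelium) fell. These called shares were again near those of all genes, while the median log2 difference of the 10 was 1.72, beside 0.00 over all genes.

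The antimicrobial genes of the crypt rose in the comparisons in which Reg4 did. Of 19 such genes, 16 passed the filter, and 16 rose in P2 against the average of the others (median log2 difference 6.68), 15 against P4 (9.34), 15 against P3 (7.35) and 6 against P1 (3.45), with 0 lower in each. Of all genes, 16.3%, 8.02%, 10.5% and 13.9% rose in these comparisons, with medians of 0.00, 0.05, -0.01 and 0.01. In P1 against P4, 14 rose (14.0% of all genes), and in P3 against P1, 5 fell (7.59% of all genes). Lyz1, the lysozyme of Paneth cells, was at 264451 and 183077 CPM in P2 and 184 to 28043 CPM elsewhere. Several of these genes are also among the Paneth markers, and Pla2g2a and Itln1 stand in 2 of the lists. Of 13 other lectins of the gut, 9 were tested, and Itln1 (intelectin, log2 6.49, SE 0.61, adjusted p = 6.24e-05) and Zg16 (a lectin of goblet cell granules, log2 4.41, SE 0.37, adjusted p = 3.54e-05) rose in P2 against the average of the others while 0 fell, where 16.3% of all genes rose. In P2 against P1, 1 of the 9 rose and 2 fell (median -0.80).

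The genes most like each member over the 10 libraries were named by Pearson's r of log2 CPM, as a description. For Reg4 they were Defa-ps4, Klb and Cybrd1 (r of 0.99 each), and for Reg1 they were Aadac, Slc4a4 and Slc6a20a (0.99 each). Reg3a was most like Cyp4f14, Mgam and Rdh7 (0.99 each). Reg3b was most like 1110021L09Rik (0.96), Dgkz and Gm7488 (0.93 each), and Reg3g was most like Rnf220 (0.96), Carhsp1 (0.94) and Mtmr2 (0.89). By Spearman's rho, 0 of the 3 genes remained the same for Reg1, Reg3a and Reg3b, 1 for Reg4 and 2 for Reg3g. By Pearson's r of CPM without the log, 1 remained for each of Reg1, Reg3b and Reg3g, 2 for Reg3a and 0 for Reg4. The Y-linked Ddx3y, which differed between replicate numbers, was then among the 3 genes most like Reg3g (0.89).

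Acinar cells of the pancreas, which express Reg genes at high levels, were checked by 21 markers. In each population 13 to 15 of them had no count in either library, among them Pnlip, Cel, Prss1 and Amy2a5, and the summed level of the 21 was 17.9 to 454 CPM outside P2 and 3318 and 2756 CPM in P2. Of the sum in P2, Clps (colipase) made up 3206 and 2707 CPM. Pnliprp1 was at 101 and 39.4 CPM in P2 and 0 to 6.84 CPM elsewhere. Of the 4 acinar markers that passed the filter, 2 were called as higher in P2 against the average of the others, where 16.3% of all genes were. The part of acinar cells in the Reg levels was not tested.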

How the data were processed

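The counts were deposited by the authors as whole reads per gene name, without normalization, 1 file for each of 10 libraries. Per the labels and the study's methods, poly-A libraries were read for 75 cycles on a NextSeq instrument, checked with FastQC 0.11.5, mapped to mm9 with TopHat2 2.1.0 and Bowtie, and counted over exons by HTSeq-count 0.11.2 in unstranded mode. Multi-mapped reads were not counted, and their alignments were 11.6% to 41.7% of all rows. Depth was 3857612 to 6485811 counts on genes, and a floor of 3 counts is 4.63e-05% to 7.78e-05% of them; floors cover counting error only. Summary rows and 1 unnamed row (0.000147% to 0.00039%) were left out.

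From the deposited counts, 204 rRNA gene names were removed, as the study did, genes were filtered with filterByExpr (13708 kept), scaled with TMM, and the 5 population means were fitted over all 10 libraries with edgeR 4.0.16 (R 4.3.3, quasi-likelihood test, 5 residual degrees of freedom). P-values were adjusted by Benjamini-Hochberg over all genes tested and called under 0.01. SEs came from the F statistics. The study used DESeq2, which was run here as an alternative (version 1.42.0). Other alternatives were RLE size factors, library totals, no filter, a threshold of 0.05, mitochondrial genes removed, rRNA names kept, the replicate number as blocking term, P3 left out and each library left out. Correlations used log2 CPM with a prior count of 2, except where CPM without the log is named. With 2 libraries against 2, an exact test of a single gene cannot pass 0.05, so no such test was run. Levels per kilobase used exonic lengths of the NCBIM37 annotation, which held 33643 of the 35006 row names. Promoters came from RefSeq tables (Biopython 1.88). Scripts were tested on simulated data.

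The members, marker lists and pathway lists were chosen with earlier results of these data known, from general knowledge. Named genes are the members, Reg2 and Reg3d, the 3 most correlated genes of each member, and from each list up to 4 genes with the largest called change and up to 4 with the highest mean CPM. Cd74, Nos2, Duox2, Duoxa2, Clps, Pnliprp1, Xist and Ddx3y were named after their values were seen.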

Additional observations from a re-analysis of the deposited data

Results flagged for a closer look

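By the labels, Reg4 had opposite differences between the EF1a gates at low and at medium OSCAR. The P5 against P4 difference was not called. The libraries labelled P2 hold the Paneth, goblet and enteroendocrine markers that the study gives to the P3 gate. Reg4 was at 3422 and 3918 CPM in them, above P1, so the direction at low OSCAR rests on the labels. Both P3 libraries (32.3 and 33.0 CPM) lay below both P1 libraries (119 and 389 CPM), and both P5 libraries (89.0 and 74.7 CPM) lay above both P4 libraries (38.2 and 29.6 CPM). The difference of the log2 differences was -4.23 (SE 0.70, edgeR adjusted p = 0.0109), which missed the threshold of 0.01, and without single libraries it ran from -4.86 to -3.11. The P3 libraries had mitochondrial shares of 59.2% and 36.1%, and the Paneth markers summed to 3433 and 1845 CPM in P3 and to 19803 and 64236 CPM in P1. The part of either in the Reg4 difference was not tested.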

How the results depend on the processing

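For members, 351 of 380 values under other settings kept their direction and side of the threshold, 22 passed it newly and 7 changed sign. The setting of an adjusted p under 0.05 used the same fit, so its directions could not change. Many of the fits without 1 library left out one that was not in the comparison, so the counts below overstate how steady the values are. With 1 library left out, 412 of 450 did, 12 calls were lost and 26 signs changed, all of uncalled values. Called members over the 5 populations numbered 3 (2 to 3 without 1 library), over the 8 comparisons 14 (11 to 14), and over the 4 comparisons without P3 7 (5 to 7). Without the filter on low counts the first of these was 4 and the second 20. The EF1a difference called 0 members (0 to 0 without 1 library) and 1, Reg4, with RLE size factors, no filter, DESeq2, the replicate block, an adjusted p under 0.05 or mitochondrial genes removed.

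With library totals the sign turned for Reg3a in P1 against P4 (-0.36) and P3 against P1 (-0.42), Reg3b in P3 against P5 (-0.95) and in the EF1a difference (-0.064), and Reg3g in P2 against P4 (-0.26) and P3 against P5 (-0.51). The cause was not tested. Without 1 library, the signs turned for Reg1 in P3 against P5 (-0.66 to 0.078), for Reg3a in P1 against P4 (-0.050 to 0.83), P3 against P1 (-0.77 to 0.84), P3 against P5 (-1.16 to 0.45) and the EF1a difference (-1.45 to 0.16), and for Reg3b in P2 against P1 (-1.42 to 0.18), P1 against P4 (-1.22 to 0.39), P3 against P5 (-0.26 to 0.45) and the EF1a difference (-0.25 to 1.36). They did for Reg3g in P2 against P1 (-0.016 to 2.73), P4 (-0.21 to 1.73), P3 (-0.79 to 0.88) and the average (-0.35 to 1.31), P1 against P4 (-1.88 to 0.71), P3 against P1 (-0.014 to 2.46), P3 against P5 (-0.21 to 1.51), P5 against P4 (-0.92 to 1.05) and the EF1a difference (-0.30 to 2.29). Where leaving out 1 library leaves a population with a single library, that library is assumed to vary like the other populations.

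Over all genes, counts in P1 against P4 fell from 3219 to 0 without either P4 library, and those in P3 against P1 from 2140 to 0 without P1 replicate 1, where edgeR called none. Over the other settings at the threshold of 0.01, with the lowest mostly from library totals and the highest from no filter, the counts were 3083 to 5508 in P2 against P1 (3985 as reported), 1962 to 3498 against P4 (1963), 1671 to 4443 against P3 (2884) and 3533 to 5160 against the average (3707), 2098 to 5024 in P1 against P4, 1169 to 4005 in P3 against P1, 0 to 195 in P5 against P4, 0 to 303 in P3 against P5, 79 to 2299 for the EF1a difference (112) and 4896 to 7932 over the 5 populations (4976). The replicate numbers were not taken as pairs: deviations of same-numbered libraries correlated at -0.06 to 0.55 (median 0.26), over 0.1 in 9 of 10 pairs of populations. In the fit with the replicate block, 16 of 40 tests and 3 of 5 members were called, with Reg1 called in P1 against P4 (-0.91, adjusted p = 0.00629) and in P3 against P1 (1.21, adjusted p = 0.00274), and Reg3g in P2 against P3 moved to -0.017.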

Other observations

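Genes that respond to interleukin-22 were also compared between replicate numbers, in the fit that holds the population and the number and that was added after the levels had been seen. Nos2, the inducible nitric oxide synthase, was at 0 to 2.37 CPM in the replicate 1 libraries and 3.56 to 36.7 CPM in the replicate 2 libraries (log2 4.94, SE 0.49, adjusted p = 0.00245) and was the 1 of 10 tested that was called, where 0.321% of all genes were. Duox2 and its partner Duoxa2 had log2 differences of 2.80 and 3.35 (adjusted p = 0.0474 and 0.0638), and Il18 one of -1.27 (adjusted p = 0.02). The median of the 10 was 1.11, beside 0.03 over all genes. Cd74, the invariant chain of MHC class II, was higher in replicate 2 in 5 of 5 populations, by 4.63-fold to 20.6-fold. Xist was lower and Ddx3y higher in replicate 2 throughout, so these differences go with the sex-linked genes, and sex, animal and day of the sort cannot be told apart.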
